A study of Mus musculus with 18 samples.

Results

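Calcium and phosphate reach the body through the epithelium of the small intestine, and 10 genes of that passage were followed here in epithelial cells sorted from the mouse ileum, the last stretch of the small intestine. The genes were taken from a list by symbol, and all 10 were found among the 47729 gene identifiers of each deposited table. They are S100g, Atp2b1, Slc8a1, Vdr, Cldn2, Cldn12, Cldn15, Slc34a2, Slc20a1 and Slc20a2. The series holds 18 bulk RNA-seq libraries in 3 groups of 6: females on day 7 of lactation, age-matched virgin males and age-matched virgin females. No genotype, transgene or strain is given in the labels, and the diet is given for all alike as RM3 while breeding and RM1 for maintenance and experiment, without saying which group ate which and when. Nothing in the labels ties a library to its own animal, so the tests measure the spread between these libraries.

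Calcium crosses the absorptive cell in 3 steps: it enters through apical channels such as TRPV6, is carried across the cytoplasm by the binding protein calbindin-D9k, and leaves at the blood side through the plasma membrane pump PMCA1 and a sodium-calcium exchanger. It also passes between cells, through tight junctions whose permeability is set by claudins. Active vitamin D acts through the vitamin D receptor to raise genes of the path through the cell. In the mouse ileum, phosphate is taken up mainly by the apical sodium-phosphate carrier NaPi-IIb, with the PiT carriers beside it. Lactation draws calcium from the mother into milk.

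Calbindin-D9k and the claudin Cldn2 are both encoded on the X chromosome, and their promoters are shown because both genes stood higher in every lactating library than in every virgin female library. The sequences are RefSeq windows of GRCm38.p6 from 250 bases before to 50 after the annotated start, for S100g at chrX:162964550-162964849 on the minus strand and for Cldn2 at chrX:139800558-139800857 on the plus strand. Capitals mark TATAAA, a core promoter element searched on the gene's own strand, and AGGTCA and GGTTCA, half-sites of the kind bound by nuclear receptors such as the vitamin D receptor, searched on both strands (TGACCT and TGAACC are the reverse forms).
S100g: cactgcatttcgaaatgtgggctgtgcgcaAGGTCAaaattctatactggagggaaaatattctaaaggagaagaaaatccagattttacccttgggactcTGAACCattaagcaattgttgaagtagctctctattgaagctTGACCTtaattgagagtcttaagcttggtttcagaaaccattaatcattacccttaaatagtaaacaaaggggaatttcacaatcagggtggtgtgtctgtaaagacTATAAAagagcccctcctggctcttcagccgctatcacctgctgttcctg
Cldn2: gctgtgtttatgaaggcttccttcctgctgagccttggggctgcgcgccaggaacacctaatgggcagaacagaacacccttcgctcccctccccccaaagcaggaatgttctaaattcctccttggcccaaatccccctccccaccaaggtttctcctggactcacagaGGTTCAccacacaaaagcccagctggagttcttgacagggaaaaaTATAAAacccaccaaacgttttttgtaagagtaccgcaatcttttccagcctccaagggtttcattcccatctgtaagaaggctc
The S100g window held AGGTCA 2 times, 1 on each strand, GGTTCA 1 time, and a TATAAA that begins at the annotated start itself. The Cldn2 window held 1 GGTTCA and a TATAAA that begins 35 bases before the start. Of 32851 promoter windows of this length, 8.32% hold TATAAA, 16.3% hold AGGTCA and 10.4% hold GGTTCA. TTCNNNGAA, the letters that STAT5, a factor of prolactin signalling, is known to bind, are in 8.30% of windows and in neither of the printed ones. They do occur in windows of Cldn12, a gene whose groups overlapped in every comparison. None of the searched letters overlapped another. For 9 of the 10 genes 13 windows were found in all. Atp2b1 also stood higher in every lactating library than in every virgin female library. Its windows held none of the searched letters and are not shown. A match describes the letters and is no evidence of binding.

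Each library held between 34577104 and 49039300 counts: the lactating libraries 37984403 to 46046333, those of virgin males 34577104 to 47748407, and those of virgin females 36508736 to 49039300. Values are given as CPM, counts scaled to a common library size, with TMM factors in that size. Ddx3y, a Y-linked gene, was at 25.4 CPM or more in every male library and at 0.0742 CPM or less in every female one. Xist was at 5.85 CPM in virgin male 6, the highest male value, and at 115 CPM or more in every female library. Gm42418, which overlaps ribosomal RNA, took 29980 CPM in virgin male 6 and 31048 CPM in virgin female 2, against 1230.2 to 4477 CPM elsewhere, so results are also given without these 2 libraries. As a sum, the 6 markers of the distal small intestine had lowest values of 4897, 3311 and 3864 CPM in lactating females, virgin males and virgin females. Markers of other segments were mixed. Fabp6, the ileal bile acid-binding protein, had lowest values of 3808, 2163 and 2513 CPM in lactating females, virgin males and virgin females. Pdx1, a factor of the duodenum, averaged 0.0805, 0.0918 and 0.0218 CPM in the same order of groups, and the colonic enzyme gene Car1 had 0 counts in all 18 libraries. Other genes of the proximal and colonic lists were expressed: Gata4 averaged 49.3, 61.3 and 63.2 CPM, the lactase gene Lct 850.1, 569 and 1194 CPM, and Car4 229, 183 and 185 CPM, again in lactating females, virgin males and virgin females. Leukocyte markers summed to at most 28.2, 51.3 and 48.1 CPM and stromal and muscle markers to at most 5.80, 3.03 and 2.82 CPM. In bulk samples, fewer cells of a type and less RNA per cell cannot be told apart.

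All 10 genes passed the filter on low counts. In GRCm38, Vdr lies on chromosome 15 (97854425 to 97910630), Slc8a1 on 17 (81373105 to 81738377), Cldn2 on X (139800828 to 139811386), and Cldn12 (5489537 to 5514958), Cldn15 (136966616 to 136975858) and Slc34a2 (53038081 to 53071664) on 5. Slc20a1 lies on chromosome 2 (129198764 to 129211616) and Slc20a2 on 8 (22476788 to 22569612). Scaled to exon length, Cldn15 and Slc34a2 stood highest, with medians over 18 libraries of 182 and 176 CPM per kb. Neither was above the other throughout: Cldn15 was the higher in 9 of 18 libraries. Vdr (68.6 CPM per kb) and Cldn2 (49.7) followed, with Vdr above Cldn2 in 15 of 18 libraries. Below them came Atp2b1 (12.5), Cldn12 (9.05), S100g (6.93) and the carriers Slc20a1 (3.99) and Slc20a2 (2.24). Slc8a1, the sodium-calcium exchanger, was last at 0.0171 CPM per kb. Places depended on the group for 3 genes at least. The median of Slc34a2 was above that of Cldn15 in lactating females (215 against 189 CPM per kb) and virgin females (236 against 178), and below it in virgin males (116 against 177). For S100g the median was 62.8 CPM per kb in lactating females, against 5.83 in virgin males and 5.86 in virgin females.

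**Figure D1:**
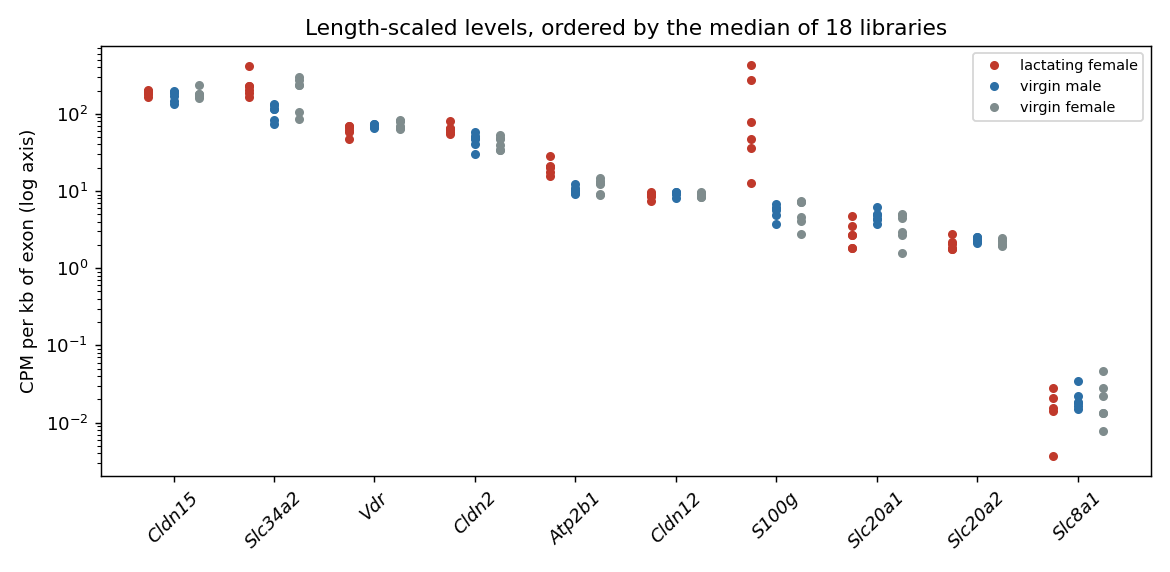
Levels of the 10 genes as CPM per kb of exon on a log axis, 1 point per library, in lactating females (red), virgin males (blue) and virgin females (grey), ordered by the median of the 18 libraries. Cldn15 and Slc34a2 lie at the top near 182 and 176 CPM per kb, S100g spreads from 2.80 to 422, and Slc8a1 lies at the bottom; a Slc8a1 library with 0 counts is not drawn.

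Lactating and virgin females are compared within 1 sex, but they differ by mating and pregnancy as well as by nursing, and possibly by diet, and these cannot be told apart here. S100g rose, and Atp2b1 and Cldn2 also lay higher in all 6 lactating libraries than in any virgin female library, without passing the test. The other 7 genes overlapped between the groups. By edgeR's quasi-likelihood test with Benjamini-Hochberg adjustment over 15572 genes, 1 of the 10 was called at an adjusted p under 0.05, against 0.0578% of all tested genes; the called member was higher, as were 0.0385% of all tested genes, and 0 were lower, against 0.0193%. Groups were fully apart and higher in lactation for 3 of the 10, against 0.148% of all tested genes, and lower for 0 of the 10, against 0.141%; in either direction the share of all tested genes was 0.289%. An unadjusted edgeR p under 0.05 was found for 4 of the 10, 3 higher and 1 lower, against 6.44% of all tested genes. The members did not move as a body: 5 had a positive and 5 a negative log2 fold change, with a median of -0.00023, beside -0.0026 for all genes.

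S100g encodes calbindin-D9k, the carrier that shuttles calcium across the absorptive cell. It lies on chromosome X from 162961992 to 162964599 (GRCm38), overlapping Ctps2 on the opposite strand, with 0 exonic bases shared. Its lowest, median and highest levels were 6.15, 30.2 and 202 CPM in lactating females, against 1.34, 2.81 and 3.61 CPM in virgin females. Every lactating library was above every virgin female library, but the lactating libraries differed 32.9-fold among themselves, with lactating females 1 and 2 at 202 and 129 CPM and lactating female 4 at 6.15 CPM. The log2 fold change was 4.69 (SE 0.66, approximate 95% interval 3.30 to 6.08, adjusted p = 0.00808 by edgeR). Lactating libraries averaged 69.3 ± 79.0 CPM, against 2.66 ± 0.958 CPM for virgin females (SD, 6 libraries a group), and 42.6 ± 49.9 CPM in the 5 lactating libraries without lactating female 1, where the log2 fold change was 3.99 (adjusted p = 0.00864 by edgeR).

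Some marker lists differed in level between the same groups. Of all the marker lists, only that of the proximal small intestine had a gene called. Of 8 enteroendocrine genes 8 had positive log2 fold changes (median 0.53), and they summed to 259.99 to 564 CPM in lactating females, against 257 to 349.6 CPM for virgin females. Villus tip genes were positive for 4 of 6 (median 0.68). Stem cell genes were positive for 0 of 8 (median -0.22) and Paneth cell genes for 0 of 5 (median -0.45). Of 8 stromal and muscle genes only Vim passed the filter, at 4.05 ± 0.853 CPM in lactating females, against 2.24 ± 0.331 CPM for virgin females, and it makes up most of that list's sum of 3.07 to 5.80 and 2.08 to 2.82 CPM. Of 5 tested genes of the proximal small intestine list 1 was called, against 0.0578% of all tested genes. Values in that list were positive for 1 of 5 (median -0.36). The part of these markers in the result was not tested. With the cell cycle score as a covariate the log2 fold change of S100g was 4.65 (adjusted p = 0.0043 by edgeR). The S100g call held with each of the 18 libraries left out in turn (log2 fold changes of 3.99 to 4.94). It was lost with limma voom weights (3.14, adjusted p = 0.268), with only these 2 groups in the edgeR fit (4.70, adjusted p = 0.149), with the replicate number as a block (4.08, adjusted p = 0.0742) and without virgin female 2 and virgin male 6 (4.62, adjusted p = 0.0863).

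Atp2b1 encodes PMCA1, the pump that expels calcium at the blood side of the cell. It lies on chromosome 10 from 98914406 to 99026143. It ran from 240 CPM (239.95) through a median of 313 to 432 CPM in lactating females, against 134, 190.05 and 226 CPM in virgin females. The nearest libraries, lactating female 4 and virgin female 5, were 240 and 226 CPM. The log2 fold change was 0.80 (SE 0.15, interval 0.49 to 1.11) and the adjusted p 0.0522 by edgeR. It stayed short of the threshold in 22 of 26 alternative settings and was past it in 4. Those were the cell cycle score of the library as a covariate (0.83, adjusted p = 0.00325), DESeq2 (0.80, adjusted p = 0.000351), and leaving out lactating female 3 or 4 (0.84 and 0.87, adjusted p = 0.0378 and 0.0354).

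Slc8a1 encodes NCX1, the exchanger that works beside the pump. It held 0 to 30 counts per library and averaged 0.259 ± 0.199 CPM in lactating females, against 0.413 ± 0.267 CPM for virgin females (SD, 6 libraries a group). Its interval of -1.77 to 0.49 log2 units leaves its direction undetermined at this depth. Lactating female 5 had 0 counts. The floor used here, 3 counts, corresponds to 0.0612 to 0.0868 CPM depending on the library (counting error only). That floor is on raw library totals, without the TMM factors that the other CPM values carry.

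Vdr encodes the vitamin D receptor, and its level went the other way. Its lowest, median and highest values were 269, 364 and 389 CPM in lactating females, against 361, 418 and 464 CPM in virgin females. The groups overlapped, and the log2 fold change of -0.24 (SE 0.11, interval -0.46 to -0.02, adjusted p = 0.73 by edgeR) did not pass the test. Vdr was below the virgin female mean in all 6 lactating libraries.

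Cldn2 encodes claudin-2, a junction protein that forms a pore for cations and water. It ran from 181 through a median of 212 to 269.7 CPM in lactating females, against 113, 144 and 178 CPM in virgin females. The groups did not overlap, although lactating female 1 at 181 CPM and virgin female 4 at 178 CPM nearly touched. The log2 fold change was 0.59 (SE 0.15, interval 0.28 to 0.91, adjusted p = 0.262 by edgeR). It passed the threshold in only 2 of 26 alternative settings, with the cell cycle covariate (0.58, adjusted p = 0.0486) and in DESeq2 (0.59, adjusted p = 0.0409). With single libraries left out it passed in 0 of 18.

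Cldn15, which forms the other cation-selective pore of the small intestine, was at 398 ± 29.8 CPM in lactating females, against 393 ± 57.8 CPM for virgin females (SD, 6 libraries a group). Cldn12, a claudin linked to calcium passage, was at 37.0 ± 3.08 and 37.6 ± 2.29 CPM in the same groups. Both groups overlapped for both genes. Their intervals, -0.22 to 0.26 for Cldn15 and -0.18 to 0.14 for Cldn12, leave out a change of the size seen for Cldn2 (0.59).

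Slc34a2 encodes NaPi-IIb, the apical phosphate carrier. Its mean was 1190.4 ± 446 CPM in lactating females, against 1034.5 ± 448 CPM for virgin females (SD, 6 libraries a group). Lactating female 1 alone reached 2067 CPM, and without it the log2 fold change of 0.20 (SE 0.29, adjusted p = 0.96 by edgeR) was -0.03. The broadly expressed carriers Slc20a1 (PiT-1) and Slc20a2 (PiT-2) were at 16.1 ± 6.34 and 12.8 ± 2.37 CPM in lactating females, against 20.0 ± 7.87 and 13.5 ± 1.37 CPM in virgin females. Their log2 fold changes were -0.32 (interval -0.87 to 0.24) and -0.08 (interval -0.31 to 0.15). Slc20a2 shares 95 exonic bases with Smim19 on the opposite strand, and Slc20a1 shares 280 and 452 with genes on its opposite strand, so reads could be mixed if strand was not used in counting.

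**Figure D2:**
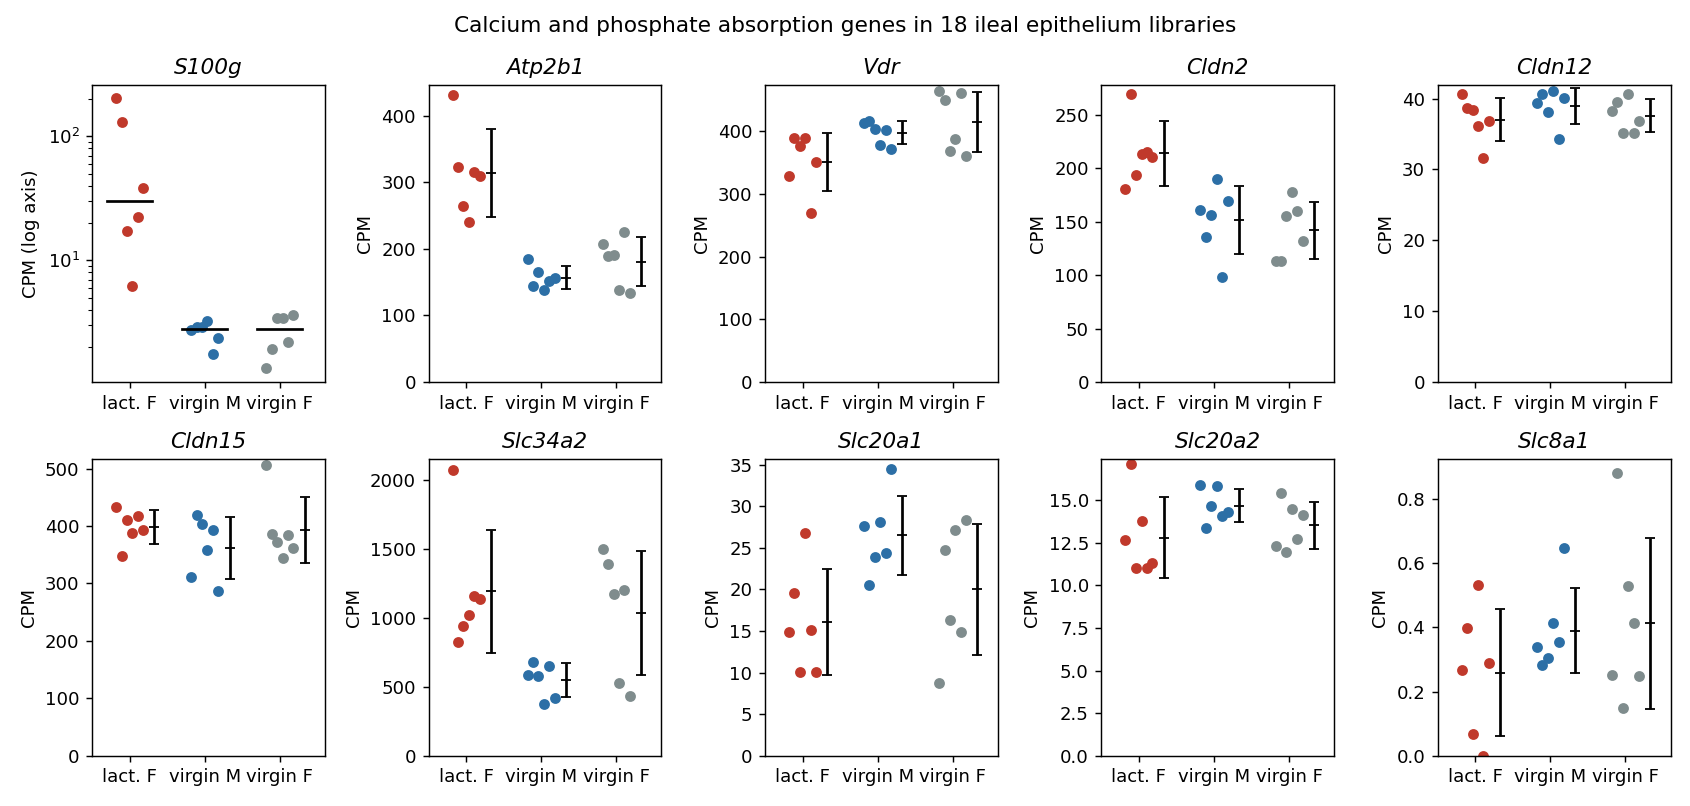
CPM of each gene by library, with lactating females left, virgin males in the middle and virgin females right; bars are the mean ± SD of 6 libraries, except for S100g, drawn on a log axis with the median as a line. S100g and Atp2b1 show every lactating library above every virgin library and Cldn2 above every virgin female library only, while Cldn12, Cldn15, Slc20a2 and Vdr overlap.

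Lactating females against virgin males differ in both sex and reproductive state, which cannot be told apart within the comparison. S100g and Atp2b1 rose, and Slc34a2 lay higher in every lactating library without passing the test. By edgeR 2 of the 10 genes were called, against 0.764% of all tested genes. Both were higher, against 0.629% of all tested genes called higher, and 0 were lower, against 0.135%. Groups were fully apart and higher in lactating females for 3 of the 10, against 0.873% of all tested genes, and lower for 0 of the 10, against 0.469%; in either direction the share of all tested genes was 1.34%. An unadjusted edgeR p under 0.05 was found for 5 of the 10, 4 higher and 1 lower, against 15.9% of all tested genes. The lactating libraries are the same ones as in the comparison with virgin females, so the values of these comparisons are not independent.

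S100g was at 1.77, 2.80 and 3.21 CPM (lowest, median, highest) in virgin males, below the lowest lactating library at 6.15 CPM. The log2 fold change was 4.71 (SE 0.66, interval 3.32 to 6.10, adjusted p = 0.000956 by edgeR). Atp2b1 was at 139, 153 and 186 CPM in virgin males, below the lowest lactating library at 239.95 CPM. The pump's log2 fold change was 1.003 (SE 0.15, interval 0.69 to 1.32, adjusted p = 0.00164 by edgeR). Both calls held in 26 of 26 alternative settings. Of 8 enteroendocrine genes 8 were positive here (median 0.55) and 1 was called by edgeR. Vim, the 1 stromal gene tested, was called too, with a log2 fold change of 0.87. Villus tip genes were positive for 5 of 6 (median 0.77), with 0 called. Stem cell genes were positive for 0 of 8 (median -0.54) and Paneth cell genes for 1 of 5 (median -0.47), with 0 called. Of 5 tested genes of the proximal small intestine list 1 was called, against 0.764% of all tested genes. Values in that list were positive for 2 of 5 (median -0.32). The part of these markers in the results was not tested.

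Slc34a2 ran from 827 through a median of 1077 to 2067 CPM in lactating females, against 375, 582 and 677 CPM in virgin males. The groups were apart, with a log2 fold change of 1.12 (SE 0.29, interval 0.51 to 1.73, adjusted p = 0.0887 by edgeR). It passed the threshold in 7 of 26 settings, and without lactating female 1 it was 0.89 (adjusted p = 0.255). Absorptive enterocyte markers lay higher in the same comparison for 10 of 10 genes tested, with a median of 0.64, and summed to 24115 to 80928 CPM in lactating females, against 16917 to 35457 CPM for virgin males. Cell cycle genes lay lower for 25 of 25, with a median of -0.28. The part of the enterocyte markers in the result was not tested. With the cell cycle score as a covariate the log2 fold change of Slc34a2 was 0.72 (adjusted p = 0.0428 by edgeR).

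Cldn2 overlapped here, at 214 ± 30.4 CPM in lactating females, against 152 ± 31.6 CPM for virgin males (SD, 6 libraries a group), since virgin male 4 reached 190.6 CPM. The log2 difference was 0.50 (SE 0.15, adjusted p = 0.152 by edgeR), and 0.62 with the cell cycle covariate (adjusted p = 0.0283). That was the only 1 of 26 alternative settings in which Cldn2 passed. Slc20a1 lay lower, at 16.1 ± 6.34 CPM in lactating females, against 26.5 ± 4.76 CPM in virgin males (log2 fold change -0.72, SE 0.27, adjusted p = 0.221 by edgeR). Vdr (-0.18), Cldn12 (-0.07), Cldn15 (0.14), Slc20a2 (-0.20) and Slc8a1 (-0.56) overlapped between the groups and did not pass the test.

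Between virgin males and virgin females, 0 of the 10 genes were called by edgeR, against 0.0835% of all tested genes, 0.045% higher and 0.0385% lower. Groups were fully apart for 0 of the 10, against 0.43% of all tested genes, 0.193% higher and 0.238% lower. DESeq2 and limma voom called 0 as well. An unadjusted edgeR p under 0.05 was found for 1 gene of the 10, against 8.32% of all tested genes, a share near the background. That gene was Slc34a2, at 375, 582 and 677 CPM in virgin males, against 429.7, 1183 and 1494 CPM in virgin females. Virgin females 4 and 6, at 528 and 430 CPM, lay within the male range, and the other 4 lay above it. The log2 fold change was -0.92 (SE 0.29, interval -1.53 to -0.31, adjusted p = 0.565 by edgeR), and -0.40 with the cell cycle covariate. All 10 enterocyte markers were lower in virgin males than in virgin females (median -0.65) and all 25 cell cycle genes higher (median 0.35), with 0 called. S100g, for all its range in lactation, averaged 2.64 ± 0.505 CPM in virgin males, against 2.66 ± 0.958 CPM for virgin females (SD, 6 libraries a group), with a log2 fold change of -0.02 (interval -1.29 to 1.25).

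**Figure D3:**
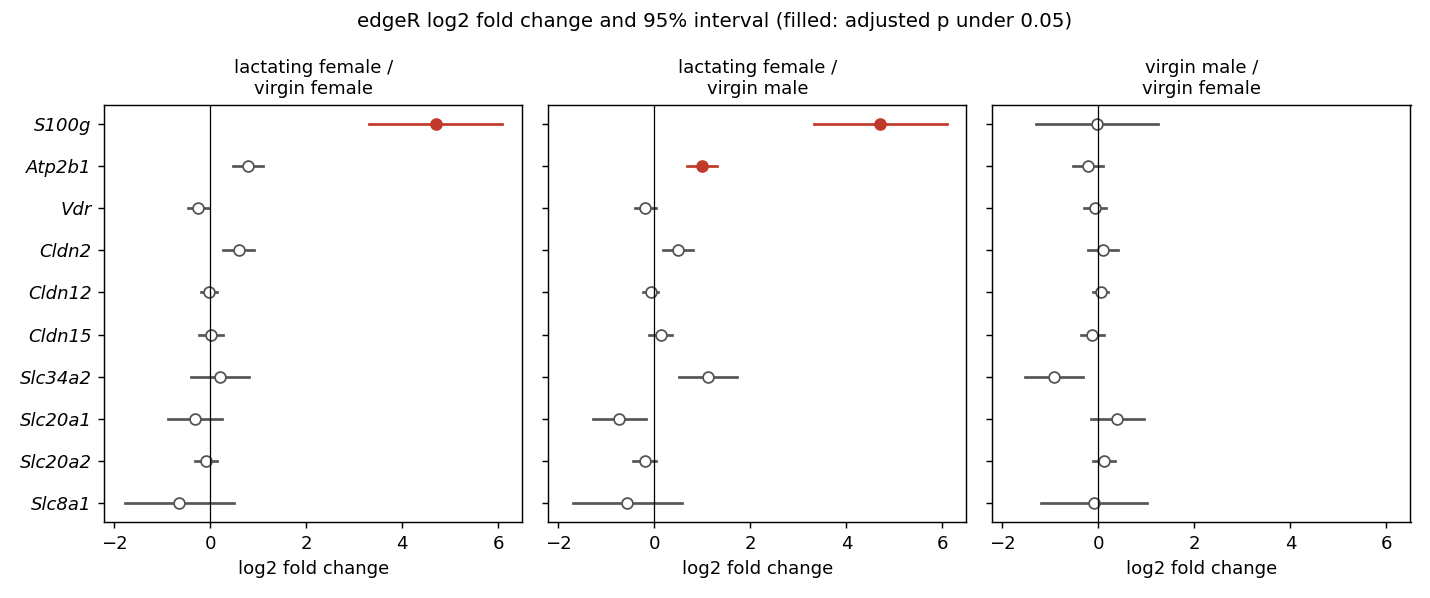
Log2 fold changes of the 10 genes with approximate 95% intervals, 1 panel per comparison; filled red points passed an adjusted p under 0.05. S100g is filled in both comparisons with lactating females (4.69 and 4.71), Atp2b1 in the one against virgin males (1.003), and no gene in virgin males against virgin females.

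The 7 other lists of calcium, vitamin D, phosphate, junction and hormone receptor genes had 57 tested genes. In lactating against virgin females edgeR called 0 of the 57, against 0.0578% of all tested genes. DESeq2 called 1 and limma voom 0, where over all genes DESeq2 called more than edgeR and limma voom fewer. An unadjusted p under 0.05 was found for 3 of the 57, against 6.44% of all tested genes, a share near the background. Their median log2 fold change was 0.04, beside -0.0026 for all genes. In lactating females against virgin males edgeR called 2 of the 57, against 0.764% of all tested genes. DESeq2 called 5 and limma voom 3, but over all genes both also called more than edgeR there. The edgeR share is therefore no measure for their counts. An unadjusted edgeR p under 0.05 was found for 16 of the 57, 14 of them higher, against 15.9% of all tested genes. The 2 called by edgeR were both higher: Slc30a10, a manganese exporter known as a vitamin D target, and Marveld3, a tight junction protein. Slc30a10 averaged 80.6 ± 51.2 CPM in lactating females, against 14.2 ± 5.13 CPM for virgin males (log2 fold change 2.50, SE 0.38, adjusted p = 0.00199 by edgeR). Marveld3 averaged 70.1 ± 15.2 and 43.7 ± 3.94 CPM in the same groups (0.68, SE 0.15, adjusted p = 0.0353 by edgeR). Against virgin females Slc30a10 had a log2 fold change of 1.64 (adjusted p = 0.157 by edgeR). S100a11, a calcium-binding protein, averaged 120 ± 68.9 CPM in lactating females, against 59.7 ± 15.8 CPM for virgin females (1.01, adjusted p = 0.442 by edgeR). Slc34a3, a phosphate carrier known from the kidney, lay apart at 1.03 to 3.42 CPM in lactating females, against 0.466 to 0.896 CPM for virgin males (1.41, adjusted p = 0.0692 by edgeR), and was called by DESeq2 and limma voom. In virgin males against virgin females 0 of the 57 were called by edgeR, DESeq2 or limma voom, against 0.0835% of all tested genes by edgeR. There 10 had an unadjusted edgeR p under 0.05, of which 1 was higher, against 8.32% of all tested genes. All 11 tested phosphate genes had negative values there, with a median of -0.28. For all tested genes the median was -0.013, and 48% had positive values. Alpi is in both the phosphate list and the enterocyte list. The 6 tested genes of the calcium pump and exchanger list all had positive values, with a median of 0.10.

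The apical channel genes Trpv6 and Trpv5 had 0 counts in all 18 libraries. On raw library totals, without TMM factors, this allows up to 0.0612 to 0.0868 CPM depending on the library. Calb1, the larger calbindin, had 6 counts in total. Cyp24a1, the vitamin D-degrading enzyme and a known target of the receptor, had 30 counts in total and at most 9 in a library.

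Each member's level was set against the cell cycle score of the library, the mean log2 CPM of 25 proliferation genes. Within groups, 2 of 30 relations passed after adjustment, those of Slc34a2 in lactating females and Cldn15 in virgin females. The score ran from 3.70 to 5.38 in lactating females, 4.78 to 5.24 in virgin males and 3.74 to 5.31 in virgin females. Slc34a2 fell in level as the score rose among the 6 lactating libraries (Pearson r = -0.928, exact p = 0.00139, adjusted over 30 relations 0.0208; Spearman rho = -1). Its r was -0.77 in virgin males and -0.917 in virgin females, where the adjusted exact p values were 0.25 and 0.0583. Cldn15 had r = -0.812, -0.442 and -0.878 in lactating females, virgin males and virgin females (adjusted exact p = 0.172, 0.556 and 0.0208). Cldn2 had positive r of 0.678, 0.900 and 0.681, none of which passed (adjusted exact p = 0.289, 0.0583 and 0.308). For Atp2b1 r was -0.623, 0.124 and -0.845 in the same order of groups, and none passed (adjusted exact p = 0.344, 0.882 and 0.167). S100g had r = -0.235 in lactating females, 0.690 in virgin males and 0.910 in virgin females, and none passed (adjusted exact p = 0.807, 0.289 and 0.0583). Its highest lactating libraries, 1 and 2, had the lowest and the highest score of that group, 3.70 and 5.38. The 4 members with fully separate groups in any comparison were left out of the relations over all 18 libraries, which leaves 6. Over all 18 libraries Cldn15 had r = -0.678 (permutation p = 0.00176, adjusted over 6 relations 0.0106) and rho = -0.626 (adjusted permutation p = 0.0399). With the 2 libraries of most extreme score left out, its r was -0.472 (adjusted permutation p = 0.126), so the call rests on those libraries. As deviations from the group means it was -0.632 (adjusted permutation p = 0.0295). Slc20a1 and Slc20a2 had positive relations that passed by rank only (rho = 0.548 and 0.579, adjusted permutation p = 0.0414 and 0.0407), with r = 0.543 and 0.506 (adjusted permutation p = 0.0599 and 0.0654). As deviations from the group means neither passed (r = 0.457 and 0.429, adjusted permutation p = 0.152 for both). Without the 2 libraries of most extreme score neither passed (r = 0.344 and 0.510, adjusted permutation p = 0.286 and 0.126). Vdr, Cldn12 and Slc8a1 passed by neither r nor rho over all 18 libraries. With the 2 libraries of most extreme score left out, Cldn12 had r = 0.630 (adjusted permutation p = 0.0479). As deviations from the group means it had 0.177 (adjusted permutation p = 0.626).

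**Figure D4:**
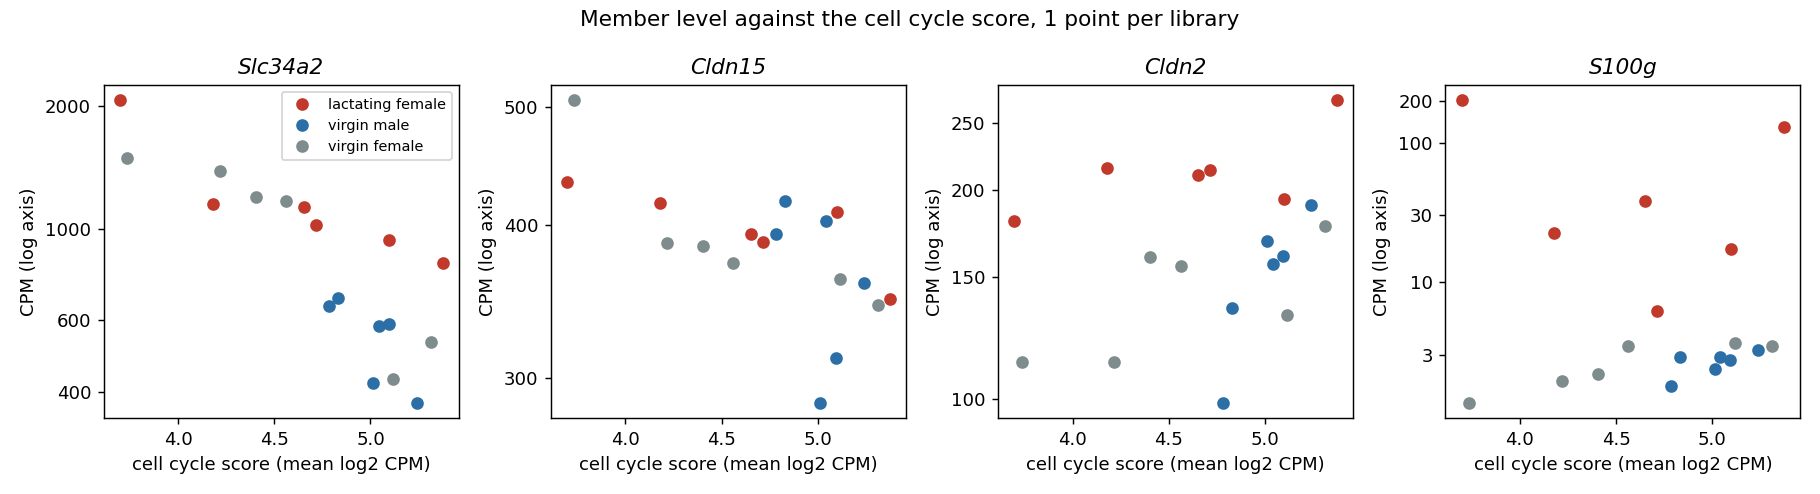
CPM (log axis) of Slc34a2, Cldn15, Cldn2 and S100g against the cell cycle score, 1 point per library, for lactating females (red), virgin males (blue) and virgin females (grey). Slc34a2 lies lower at higher scores within each group (r = -0.928, -0.77 and -0.917), and the lactating S100g points lie above all others at every score.

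Among the 6 lactating libraries, Atp2b1 was highest where S100g was highest, in lactating female 1 (432 and 202 CPM), and lowest where it was lowest, in lactating female 4 (239.95 and 6.15 CPM). Pearson's r was 0.904 (exact p = 0.0194, adjusted over 9 relations 0.175) and rho 0.943 (exact p = 0.0167, adjusted 0.15). With the 2 most extreme S100g libraries left out it was 0.675 (exact p = 0.333). The relation did not hold after adjustment and was looked at after the values were seen.

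Of all tested genes, those most like S100g over the 18 libraries by Pearson's r of log2 CPM were Plod3 (0.906), Aldh7a1 (0.876), Syt11 (0.846), Atp2b1 (0.841) and Plod2 (0.835). Plod2 and Plod3 encode lysyl hydroxylases of collagen. Plod2 averaged 9.94 CPM in lactating females, 0.518 in virgin males and 0.898 in virgin females. Those most like Atp2b1 were Gm2061 (0.927), Slc30a10 (0.927), Slc39a4 (0.920), Slc31a1 (0.909) and Fgl2 (0.908). Slc39a4, the intestinal zinc importer, averaged 742, 257 and 355 CPM, and Slc31a1, the copper importer, 561, 189 and 284 CPM, in lactating females, virgin males and virgin females. These likenesses are descriptions over libraries that share the group difference.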

How the data were processed

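Poly(A) RNA from sorted ileal epithelium was sequenced from libraries made with a directional kit, per the labels' protocols. The deposited tables hold the authors' raw counts per Ensembl gene. The submitters' processing notes name FastQC 0.11.5, HISAT2 2.0.4, featureCounts of Subread 2.0.0, DESeq2 1.24.0 and GRCm38. The annotation release, strand setting, treatment of reads with several matches, sort gates and batches are not given in the sources used here. Of 47729 identifiers 47310 were named through GENCODE M21.

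Genes were kept by filterByExpr (15572), scaled by TMM and tested with edgeR 4.0.16 (glmQLFit and glmQLFTest, R 4.3.3) in 1 fit over the 18 libraries, with Benjamini-Hochberg adjustment over all tested genes. The SE is the fold change over the root of F, and intervals built from it are approximate. Log2 CPM used a prior count of 2. Alternatives were DESeq2 1.42.0 on the same counts, limma 3.58.1 voom with quality weights, RLE scaling, no filter, 2 groups only, the replicate number as a block, a cell cycle covariate, leaving out virgin female 2 with virgin male 6, and each library left out in turn. No 2 libraries agreed within sampling noise. The fit was tested on simulated data. Correlations used exact or 100000-fold permutation tests, two-sided. From the other lists, called genes and up to 3 per list and comparison with the smallest p could be named. For likeness the 5 highest r were named. The members and lists were chosen with earlier results of these data known.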

Additional observations from a re-analysis of the deposited data

Results flagged for a closer look

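Of 30 groups of 6 libraries examined (10 genes in 3 groups, on log2 CPM), 2 had a library far from the other 5, and chance alone flags about 1 in 20 groups. Cldn15 was at 506.4 CPM in virgin female 1, against 344.3 to 387 CPM in the other virgin females (gap over range 0.697). Slc34a2 was at 2067 CPM in lactating female 1, against 826.9 to 1154 CPM in the other lactating females (gap over range 0.636).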

How the results depend on the processing

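Of the values of single members under the alternatives, 743 kept direction and side of the threshold, 14 passed it newly, 4 no longer passed and 19 changed sign. In lactating against virgin females the count of members called, 1, was 3 in DESeq2 and with the cell cycle covariate, and 0 with limma voom, 2 groups only, the replicate block, or without virgin female 2 and virgin male 6. It was 1 to 2 with single libraries left out. The count over all genes, 9, was 67 in DESeq2, 2 with limma voom, 1 with 2 groups only, 1 with the replicate block, 1 without those 2 libraries, 60 with the covariate and 2 to 16 with single libraries left out. In virgin males against virgin females the count of 13 was 20 with no filter, 43 in DESeq2, 20 with limma voom and 10 to 16 with single libraries left out, and the members called stayed at 0 to 0. In lactating females against virgin males the members called, 2, were 4 with the covariate and 2 to 3 with single libraries left out, and the count of 119 genes was 409 in DESeq2, 217 with limma voom, 61 without those 2 libraries and 61 to 306 with single libraries left out. The cause of these shifts was not tested. Signs changed for members whose values did not pass the test: Cldn12 in lactating against virgin females was 0.02 (0.02015) with limma voom, Slc8a1 in virgin males against virgin females was 0.3221 with limma voom, 0.07815 with the replicate block and 0.07138 without those 2 libraries, and with the covariate S100g was 0.02288 and Cldn2 -0.04471 there. With single libraries left out, the ranges were -0.04878 to 0.02058 for Cldn12, -0.01459 to 0.1065 for Cldn15 and -0.02716 to 0.3369 for Slc34a2 in lactating against virgin females, and -0.1511 to 0.08817 for S100g and -0.2752 to 0.267 for Slc8a1 in virgin males against virgin females. Replicate numbers did not clearly pair the libraries. Deviations of same-numbered libraries correlated at -0.0631 to 0.219 (lactating and virgin females), -0.174 to 0.321 (lactating females and virgin males) and -0.219 to 0.477 (virgin males and virgin females). Of 18 libraries 5 were most like a library of their own number. These values were not tested against chance, so a pairing by number was not settled. Depth limits Slc8a1, with 0 to 30 counts per library.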
